A study of Mus musculus with 11 samples.

Results

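The clustered replication-dependent histone genes are the genes for the core histones H2A, H2B, H3 and H4 and the linker histone H1 that lie side by side in the genome and are switched on as cells copy their DNA. They were taken here as the genes whose GRCm38-era symbol begins with Hist1h, Hist2h, Hist3h or Hist4h and that had at least 10 counts in all over 11 RNA-seq libraries. Of 70 annotated genes with such a symbol, 38 met the rule, out of 28222 genes measured. A further 17 had fewer than 10 counts and 15 were not analysed here. The 38 genes comprised 3 for H1, 7 for H2A, 12 for H2B, 6 for H3 and 10 for H4. Of them, 33 belong to the Hist1 cluster on chromosome 13, 4 to the Hist2 cluster on chromosome 3 and 1, Hist4h4, lies alone on chromosome 6. No gene of the Hist3 cluster on chromosome 11 met the rule.

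The libraries were made from polyadenylated RNA of mouse mesenchymal stem cells (MSCs, stromal cells that can form bone, cartilage and fat), all of them kept in culture in αMEM medium at 2% oxygen. Batch A held 4 libraries of young mice (A young), batch B held 2 of young (B young) and 2 of old mice (B old), and batch C held 3 of old mice (C old), with young meaning 3 to 5 and old 18 to 22 months of age. The labels name no strain, sex, genotype or treatment, and do not say whether libraries of a group came from separate animals or cultures, so that p-values measure only the spread between these libraries. Age can be compared within batch B alone, and in the contrast of C old with A young age and batch cannot be told apart.

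Replication-dependent histone mRNAs are the main animal mRNAs that do not end in a poly(A) tail. They end instead a few bases after a short stem-loop, which is bound by the stem-loop binding protein SLBP and cut by a complex that contains the U7 small nuclear RNA. They are made in S phase, when new nucleosomes need histones, and are destroyed quickly when DNA synthesis stops. Some of the same genes can also give longer transcripts with a poly(A) tail, made through an AATAAA signal further downstream, and such transcripts are known from differentiating and resting cells. In RNA selected for poly(A) tails, the level of such a gene therefore reads its tailed or otherwise retained RNA, not its total histone mRNA. In bulk samples fewer cells that express a gene and less RNA per cell cannot be told apart.

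The stem-loop was searched for in the annotated transcripts as a stem of 6 base pairs around a loop of 4 bases within the RNA that follows the stop codon. It was found in 29 of the 38 genes, from 24 to 58 bases after the stop codon, with a median of 31. The sequences are shown because they are the feature that sets these RNAs apart from other mRNAs. The 16 bases of the stem-loop are in capitals and up to 5 bases on each side in lower case, read 5′ to 3′ as DNA from the GENCODE transcripts on GRCm38. The H4 genes shown differ from those of the other classes within the stem.
Hist1h1c: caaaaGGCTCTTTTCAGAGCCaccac
Hist1h2bg: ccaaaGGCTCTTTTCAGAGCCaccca
Hist2h3c2: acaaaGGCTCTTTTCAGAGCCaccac
Hist1h2ao: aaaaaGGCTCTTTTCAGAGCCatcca
Hist2h2aa1: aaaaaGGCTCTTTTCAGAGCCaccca
Hist1h4h: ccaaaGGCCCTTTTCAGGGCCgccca
Hist1h4i: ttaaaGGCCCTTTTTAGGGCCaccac
The sequence in capitals of Hist1h1c was shared by 18 genes and that of Hist1h4h by 5 H4 genes. Of the 9 genes without a match, 4 (Hist1h1b, Hist1h2bn, Hist1h3i and Hist1h4k) have annotated transcripts that stop at the stop codon, so that nothing could be found there. Hist1h2bc, Hist1h2br and Hist2h2be are without a match too, but their transcripts run on for 742 bases (Hist1h2bc), up to 1803 bases (Hist1h2br) and 2192 bases (Hist2h2be) after the stop codon and hold AATAAA. The transcript of Hist1h2bc and the longer ones of Hist1h2br are spliced, and sequence outside the annotated exons was not searched. Hist1h1c has both a stem-loop and AATAAA. Its transcript has the stem-loop 24 bases after the stop codon and continues for 840 bases beyond it, with AATAAA 20 bases before its end. In all, 15 of the 38 genes had AATAAA somewhere after the stop codon of an annotated transcript. It was matched by sequence alone, at any distance from the transcript end. The last match lay from 3 bases (Hist4h4) to 691 bases (Hist1h2be) before the end, so that a match need not be a signal in use.

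A promoter of RefSeq (GRCm38.p6, 250 bases before to 50 bases after the start) was matched for 34 of the 38 genes. CCAAT on either strand was present in promoters of all 25 matched H1, H2A, H2B and H3 genes and in 3 of 9 matched H4 genes, compared with 37.4% of all 32851 promoters. TATAAA on the sense strand was present in 17 of the 34 genes, compared with 8.32% of all promoters. The octamer ATTTGCAT, searched on both strands, was found in 6 of the 34 genes, all for H2A or H2B, compared with 1.74% of all promoters. Some of these promoters overlap, such as those of Hist1h2ae and Hist1h2bg. A match searched on both strands can then count for both genes, so that the counts are not of separate promoters. The promoter of Hist1h2bg is shown because it holds all of these motifs, in capitals, over the 190 bases before its RefSeq start (chr13:23571210-23571399, plus strand, GRCm38.p6).
Hist1h2bg promoter: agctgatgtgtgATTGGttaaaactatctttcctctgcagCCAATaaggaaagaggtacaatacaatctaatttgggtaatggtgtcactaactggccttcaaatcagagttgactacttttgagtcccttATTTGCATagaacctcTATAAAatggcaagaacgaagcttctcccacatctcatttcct
A motif match is a description of the sequence and not of a factor bound there.

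The library totals were between 11969336 and 20315934 counts, of which the 38 histone genes took between 0.0158% and 0.0236%, or 1937 to 3611 counts per library. Levels are given as CPM, counts relative to the library total, with totals scaled by the trimmed mean of M-values (TMM), and 3 counts correspond to 0.156 to 0.253 CPM. MSC markers (Pdgfra, Ly6a, Col1a1 and 8 others) were present in every group, with Pdgfra between 109 and 289 CPM. The summed level of the 11 markers was 56738 to 65436 CPM in A young and 46254 and 27353 CPM in B young. It was 24670 and 26291 CPM in B old and 23376 to 24329 CPM in C old. Of these markers 0 were higher and 2 lower in B old than in B young (0.694% and 1.54% of all genes). In C old against B old 6 were higher and 1 lower (26.9% and 28.3% of all genes). Macrophage and other blood cell markers were present too. All 12 were tested and all 12 were lower in C old than in B old, with a summed level of 135 to 159 CPM in C old and 385 to 1514 CPM in the other libraries. The summed level of 6 red blood cell precursor markers was 9.42 to 27.4 CPM in A young and 39.7 and 42.3 CPM in B young. It was 68.8 and 50.6 CPM in B old and 18.9 to 21.4 CPM in C old. For 6 endothelial markers it was 2.60 to 10.6 CPM over all libraries. The part of these cell types in the histone values was not tested.

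The summed level of the 38 histone genes was dominated by a linker histone gene and an H2B gene. Hist1h1c and Hist1h2bc together made up between 65.1% and 82.5% of the sum. The sum was 182, 174, 201 and 202 CPM in A young, 188 and 200 CPM in B young, 220 and 232 CPM in B old and 146, 151 and 141 CPM in C old. The 3 C old libraries lay below all others and the B old libraries above all others. Means were 190 ± 13.8 (SD, n = 4) in A young, 194 ± 8.61 (SD, n = 2) in B young, 226 ± 8.51 (SD, n = 2) in B old and 146 ± 5.07 (SD, n = 3) in C old. With CPM on unscaled totals the sums were 162 to 173 CPM in C old and 158 to 187 CPM in A young, so that these groups then overlapped, while B old stayed highest with 221 and 236 CPM. Without Hist1h1c and Hist1h2bc the other 36 genes summed to 26.3 to 27.6 CPM in C old and to 48.7 to 70.1 CPM elsewhere.

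**Figure D1:**
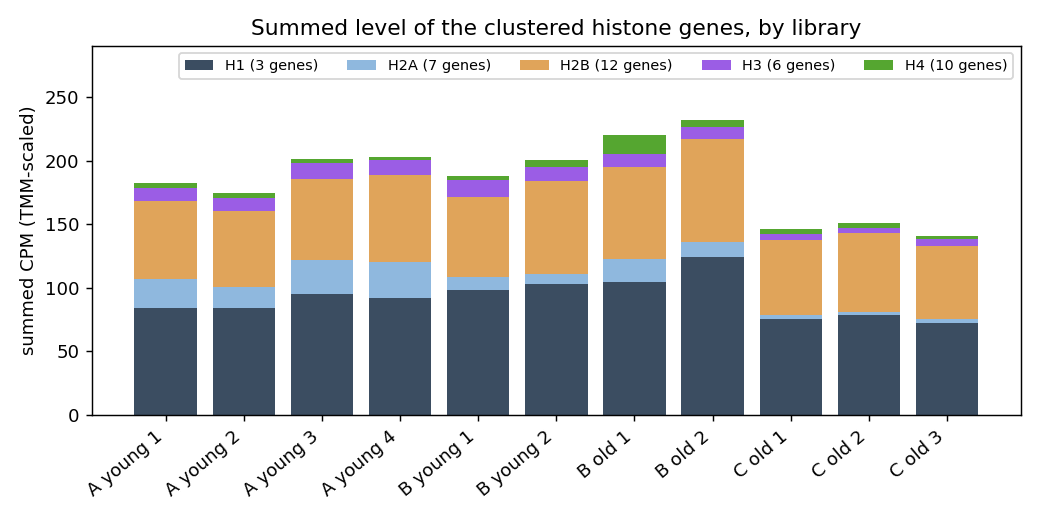
Stacked bars of the summed CPM (TMM-scaled) of the 38 histone genes in each of the 11 libraries, coloured by histone class. The C old bars end between 141 and 151 CPM and the B old bars at 220 and 232 CPM, and H1 and H2B genes make up most of every bar.

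C old had the lowest mean in each of the 5 classes, and differences between classes were not tested. The H1, H3 and H2A sums rested largely on single genes. In A young Hist1h1c had a mean of 88.3 of 88.9 CPM for H1. Hist2h3c2 had 10.4 of 11.3 CPM for H3 and Hist1h2ao 15.0 of 23.5 CPM for H2A. For H4 the mean of C old, 3.14 ± 0.58 (SD, n = 3), was within the spread of A young, 3.23 ± 0.74 (SD, n = 4). H1 genes summed to 72.2 to 78.9 CPM in C old and to 84.1 to 124 CPM in the other libraries. H2A genes summed to 15.9 to 28.1 CPM in A young, 8.51 and 10.4 CPM in B young, 11.2 and 18.4 CPM in B old and 2.23 to 3.34 CPM in C old, with every C old library below all others. H3 genes summed to 4.45 to 5.59 CPM in C old and to 9.28 to 13.5 CPM in the other libraries. H2B genes overlapped much more, with 57.0 to 61.6 CPM in C old and 59.7 to 68.7 CPM in A young. H4 genes were at 2.19 to 5.41 CPM in 10 libraries and at 15.0 CPM in B old replicate 1.

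Of the 38 genes, 28 had enough counts to be tested in a model of the 4 groups with the quasi-likelihood test of edgeR, and the other 10 were too low. Higher or lower is used below for an adjusted p under 0.05 over all 16132 genes tested. Since a gene could pass the count filter through the group in which it was high, the counts among tested genes describe them and are set beside the share of all genes called.

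Between B old and B young, the only contrast of age within a batch, none of the 28 tested histone genes was called by edgeR. Over all genes 0.694% were higher and 1.54% lower. At an unadjusted p under 0.05 there were 6 histone genes (5 higher and 1 lower in B old), DESeq2 called 0 of the 11 to which it gave an adjusted p, and limma-trend called 0. The log2 fold change was positive for 22 genes and negative for 6, with a median of 0.46 compared with 0.00 over all genes. Hist1h1c was at 97.8 and 102 CPM in B young and at 103 and 124 CPM in B old (log2 fold change 0.18 ± 0.11 SE, adjusted p = 0.461). Its B old libraries lay just above its B young libraries. Hist2h3c2, an H3 gene, went the other way, with 12.2 and 10.1 CPM in B young and 7.88 and 7.68 CPM in B old (log2 fold change -0.52 ± 0.19 SE, adjusted p = 0.168). Hist1h2be, an H2B gene whose locus overlaps Hist1h1e, was at 3.39 and 3.81 CPM in B young and at 4.92 and 4.74 CPM in B old (log2 fold change 0.43 ± 0.23 SE, adjusted p = 0.395). B young and B old did not overlap for Hist2h3c2 or Hist1h2be, but neither difference was called. Hist1h2ao and Hist1h2ap, H2A genes that share most of their sequence, had larger upward fold changes, also without overlap and not called. The log2 fold change was 0.91 ± 0.35 SE for Hist1h2ao (adjusted p = 0.212, edgeR) and 1.16 ± 0.43 SE for Hist1h2ap (adjusted p = 0.188, edgeR). With no filter on low counts Hist1h2ao was called (log2 fold change 0.90).

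The H4 genes set B old replicate 1 apart. Of the 10 H4 genes, 8 were highest in that library. The genes with the largest contrast, picked after their values were seen, were Hist1h4k, Hist1h4a, Hist1h4d and Hist1h4j. Hist1h4k was at 2.43 CPM in B old replicate 1 and 0.134 CPM in B old replicate 2, with at most 0.338 CPM in any other library. Hist1h4a was at 2.02 and 0.401 CPM in the same pair, and at most 0.222 CPM elsewhere. Hist1h4j was at 1.55 and 0.200 CPM, and at most 0.104 CPM elsewhere. All are low, with 31 to 57 counts per gene in total. Hist1h4j and Hist1h4k did not pass the count filter. The 39 DNA replication genes summed to 931 CPM in B old replicate 1 and 711 CPM in B old replicate 2, and the blood cell markers to 1128 and 785 CPM. Their part in the H4 values was not tested. Fits that left out either B old library had a single B old library, assumed to vary like the other groups. With B old replicate 2 left out, the fit called Hist1h4a, Hist1h4j and Hist1h4k higher in B old. These are genes picked for their high values in the remaining library, so that the calls describe that library and are no test of age. With B old replicate 1 left out, the median log2 fold change over the histone genes was 0.31 and 0 were called.

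**Figure D2:**
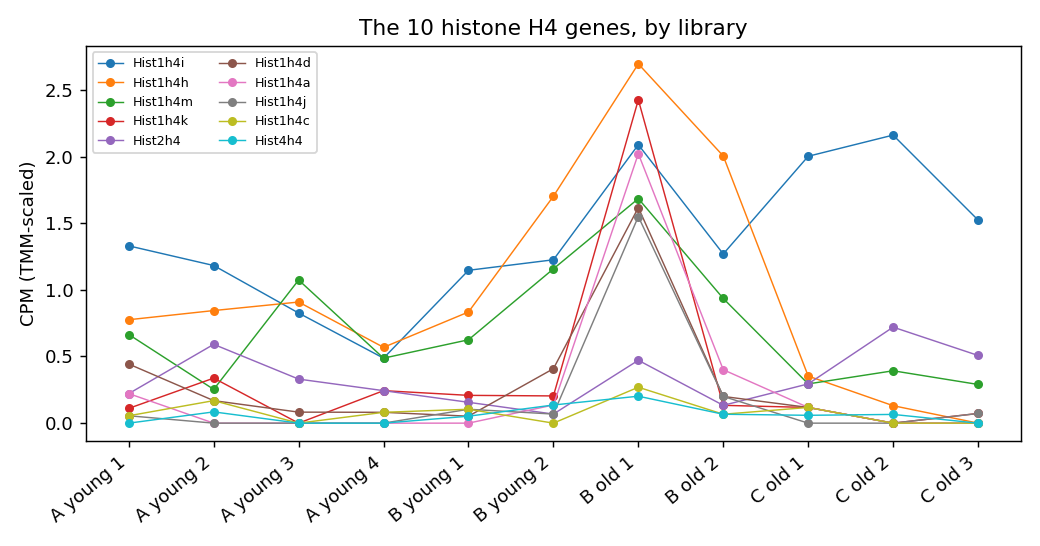
Level (CPM, TMM-scaled) of the 10 H4 genes in each library, with a line joining the points of a gene for the eye only. B old replicate 1 holds the highest value of 8 genes, and Hist1h4i stays at 1.52 to 2.16 CPM in C old, where Hist1h4h falls to 0.00 to 0.353 CPM.

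B young and A young share the age and differ in batch. Of the 28 tested genes, 0 were higher, compared with 12.8% of all genes, and 2 were lower, compared with 13.1% of all genes. DESeq2 and limma-trend also called 2 lower and 0 higher, and at an unadjusted p under 0.05 there were 2 higher and 3 lower. The median log2 fold change was 0.12, compared with -0.01 over all genes. The 2 lower genes were Hist1h2ao (chr13:21810465-21810944, plus strand) and Hist1h2ap (chr13:21833026-21833507, minus strand), which encode histone H2A. Of their windows of 50 bases, 93.5% (Hist1h2ao) and 93.1% (Hist1h2ap) also occur in transcripts of other genes, mostly in each other, so that their reads can have been split or lost and they are not separate evidence. Both also overlap a predicted gene on the opposite strand. Hist1h2ao was at 14.4, 7.94, 18.4 and 19.3 CPM in A young and at 3.80 and 4.77 CPM in B young. Every A young library was above both B young libraries, with a log2 fold change of -1.81 ± 0.31 SE (adjusted p = 0.000966, edgeR). Hist1h2ap was at 3.27, 1.86, 2.81 and 4.55 CPM in A young and at 1.04 and 1.09 CPM in B young. Its groups did not overlap either, with a log2 fold change of -1.55 ± 0.38 SE (adjusted p = 0.00787, edgeR). Leaving out either B young library left a single one, assumed to vary like the other groups. Without B young replicate 2 only Hist1h2ao was called, and without B young replicate 1 there were 3 lower genes (Hist2h2aa1 added) and 1 higher gene (Hist1h2bc). On unscaled totals 2 were lower and 3 (Hist1h1c, Hist1h2bc and Hist1h2be) higher. Of the 12 blood cell markers 8 were lower and 0 higher in B young than in A young, with a median log2 fold change of -1.16. They summed to 684 to 1514 CPM in A young and to 385 to 779 CPM in B young, and their part in the histone values was not tested. Among the 23 tested genes with no overlapping annotated gene, 0 were called by edgeR in this contrast and 2 had an unadjusted p under 0.05.

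C old and B old share the age and differ in batch, and here 13 histone genes were lower, compared with 28.3% of all genes, and 0 were higher, compared with 26.9% of all genes. The other 15 tested genes were not called. DESeq2 called 10 lower and 0 higher, limma-trend 13 lower and 0 higher, and at an unadjusted p under 0.05 there were 13 lower and 0 higher. The median log2 fold change was -0.97, compared with 0.02 over all genes, and the 13 lower genes ranged from -6.39 to -0.61. On unscaled totals 12 were lower and 0 higher, with the median over all genes at 0.21 and that of the histone genes at -0.79. Without B old replicate 1, whose H4 levels stood apart, 10 were lower and 0 higher, with B old replicate 2 assumed to vary like the other groups. Hist1h2bp was then called, and Hist1h4d, Hist1h4m and Hist1h2ac were not. The log2 fold change was still below 0 for Hist1h4m (-1.50, adjusted p = 0.0947, edgeR) and Hist1h4d (-2.02, adjusted p = 0.330, edgeR). Hist1h4a no longer passed the count filter and has no value there. The blood cell markers were lower in C old over their whole list, as given above, and their part in the histone values was not tested. The contrasts share libraries, so that the values of B old enter both this contrast and that of age within batch B.

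The linker histone gene Hist1h1c (chr13:23738808-23740367, plus strand) was the most abundant of the 38 genes. It was at 83.5, 83.9, 94.2 and 91.5 CPM in A young and at 74.4, 78.2 and 70.8 CPM in C old, beside the B old values of 103 and 124 CPM. C old was below B old without overlap (log2 fold change -0.61 ± 0.10 SE, adjusted p = 0.000143, edgeR). Hist1h2bc (chr13:23684199-23692908, plus strand), an H2B gene without an annotated stem-loop, was at 47.0 and 55.9 CPM in B old and at 44.2, 46.2 and 42.4 CPM in C old. The C old values were just below those of B old and the difference was not called (log2 fold change -0.22 ± 0.12 SE, adjusted p = 0.130, edgeR).

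Hist1h2bg (chr13:23571396-23572013, plus strand), an H2B gene with a stem-loop and no AATAAA, was at 16.6, 18.6, 18.9 and 20.8 CPM in A young, 14.6 and 15.0 CPM in B young, 15.2 and 15.1 CPM in B old and 8.83, 8.90 and 8.27 CPM in C old. The values of B young and B old lay side by side, A young above and C old below them. C old was lower than B old by 0.80 ± 0.13 SE on the log2 scale (adjusted p = 0.000112, edgeR). Hist2h3c2 (chr3:96238108-96239127, minus strand) was at 9.25 to 11.8 CPM in A young and at 3.83, 3.80 and 5.01 CPM in C old. It was lower in C old than in B old, by a log2 fold change of -0.89 ± 0.18 SE (adjusted p = 0.000741, edgeR), and 63.5% of its windows are shared with other genes. Hist1h2be was at 1.88, 2.36 and 2.76 CPM in C old, below both B old libraries (log2 fold change -1.06 ± 0.22 SE, adjusted p = 0.000881, edgeR).

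The H2A genes Hist1h2ao and Hist1h2ap were nearly undetected in C old. Hist1h2ao was at 10.2 and 5.81 CPM in B old and at 0.118, 0.0655 and 0.0726 CPM in C old. This is 238 counts in both B old libraries and 4 counts in all C old libraries, a ratio of 91.9 with a 95% exact interval of 35.4 to 340.0 that covers counting error only. Hist1h2ap was at 2.83 and 1.94 CPM in B old, or 71 counts, and had 3 counts in C old, a ratio of 36.5 with an interval of 12.01 to 181. Both were lower in C old (edgeR adjusted p = 3.33e-07 for Hist1h2ao and 6.32e-06 for Hist1h2ap). The H4 gene Hist1h4h (chr13:23531050-23531519, plus strand) was at 2.69 and 2.00 CPM in B old and at 0.353, 0.131 and 0.00 CPM in C old, or 70 and 8 counts. It was lower in C old by 3.71 ± 0.57 SE on the log2 scale (adjusted p = 5.67e-05, edgeR), and by 3.48 with B old replicate 2 as the single B old library.

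**Figure D3:**
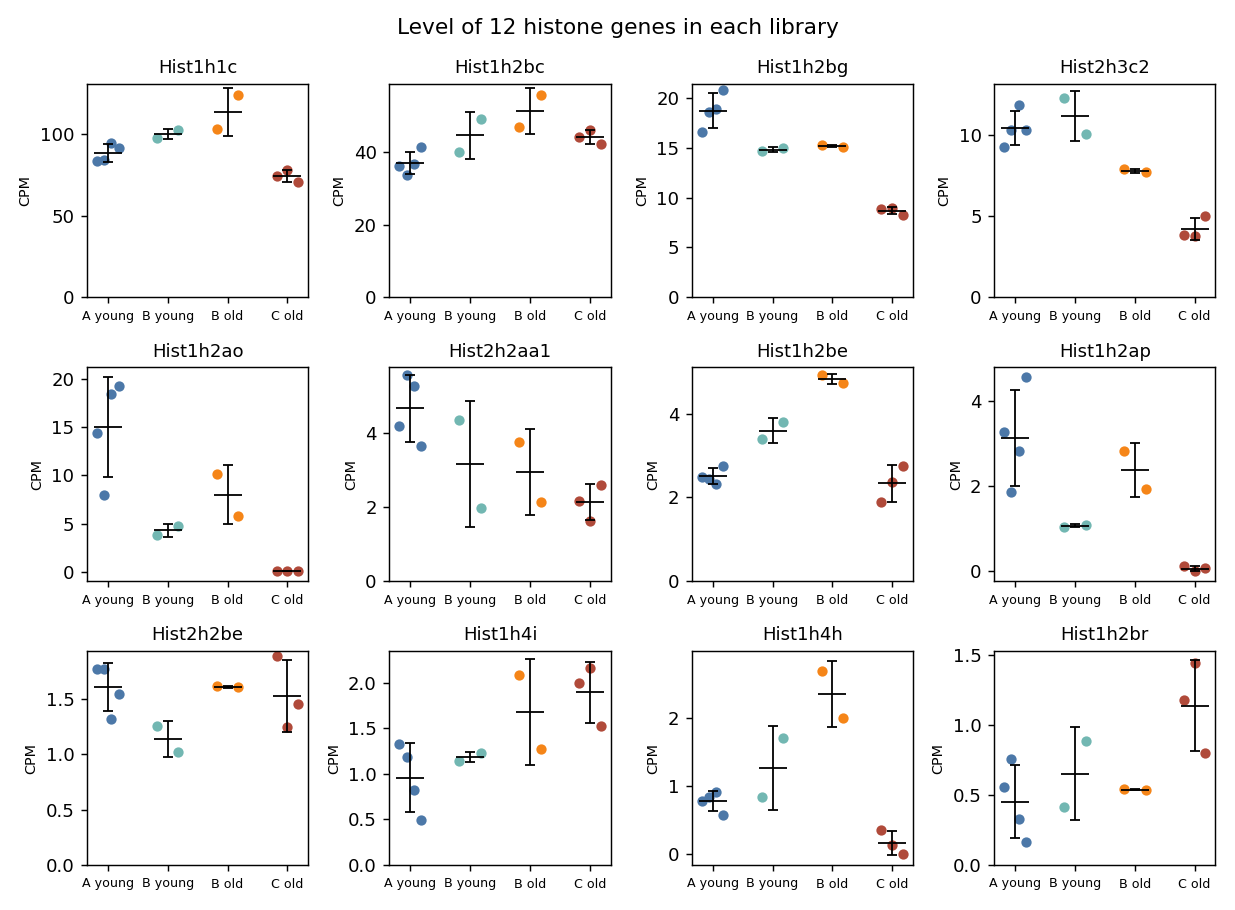
CPM (TMM-scaled) of 12 histone genes in each library, with points for libraries, horizontal marks for group means and bars for the SD (n = 4, 2, 2 and 3 from left to right). Hist1h2ao, Hist1h2ap, Hist1h2bg and Hist2h3c2 are lowest in C old, while Hist1h2bc, Hist2h2be, Hist1h4i and Hist1h2br are not.

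C old against A young joins the difference in age to that in batch. Here 9 tested histone genes were lower, compared with 31.4% of all genes, and 3 were higher, compared with 27.1% of all genes, with a median log2 fold change of -0.52, compared with -0.03 over all genes. The lower genes with the smallest p-values were Hist1h2ao, Hist1h2ap, Hist1h2bg and Hist2h3c2. Hist1h2bg was lower in C old by 1.11 ± 0.11 SE on the log2 scale (adjusted p = 9.66e-07, edgeR) and Hist2h3c2 by 1.31 ± 0.16 SE (adjusted p = 4.09e-06, edgeR). Hist2h2aa1 (chr3:96245497-96246082, plus strand), an H2A gene all of whose windows occur in other annotated transcripts, was at 4.21, 5.57, 5.29 and 3.66 CPM in A young and at 2.18, 1.64 and 2.61 CPM in C old. Its groups did not overlap (log2 fold change -1.12 ± 0.29 SE, adjusted p = 0.00383, edgeR). Hist1h1c was lower by 0.25 ± 0.09 SE (adjusted p = 0.0253, edgeR), but turned to a log2 fold change of 0.11 on unscaled totals, where the median over all genes was 0.33. It was not called by DESeq2, with DESeq2's size factors (RLE) in edgeR, with the replicate block, or once A young replicate 3, A young replicate 4 or any C old library was left out.

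The 3 genes higher in C old than in A young were Hist1h2bc, Hist1h2br and Hist1h4i. Hist1h2bc was at 36.3, 33.8, 36.8 and 41.4 CPM in A young, all below its C old libraries. The difference was small (log2 fold change 0.26 ± 0.10 SE, adjusted p = 0.0395, edgeR). Hist1h2br (chr13:21833743-21837530, plus strand), an H2B gene that shares 88.7% of its windows, was at 0.554, 0.760, 0.330 and 0.162 CPM in A young and at 1.18, 1.44 and 0.798 CPM in C old. Its log2 fold change was 1.31 ± 0.44 SE (adjusted p = 0.0186, edgeR). Hist1h4i (chr13:22040636-22041362, minus strand), an H4 gene, was at 1.33, 1.18, 0.826 and 0.487 CPM in A young and at 2.00, 2.16 and 1.52 CPM in C old. Its log2 fold change was 0.95 ± 0.32 SE (adjusted p = 0.0192, edgeR). None of the 3 was called once C old replicate 2 was left out. Hist1h2bc also lost its call without A young replicate 1, 2 or 3 or any C old library, and with no filter on low counts, and Hist1h4i without A young replicate 4 or C old replicate 1. With the replicate block Hist1h2br and Hist1h4i were not called. Hist2h2be (chr3:96221119-96223738, plus strand), whose annotated transcript has no stem-loop, was at 1.32 to 1.77 CPM in A young and 1.24 to 1.88 CPM in C old and was called in none of the 4 contrasts.

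The old-young difference from A to C was also tested against that within B. It was lower for 8 of the 28 histone genes, compared with 19.8% of all genes, and higher for 0, compared with 15.9% of all genes, with 10 lower and 0 higher at an unadjusted p under 0.05 (edgeR). For Hist1h2bg, the log2 fold change was -1.11 from A young to C old and 0.03 from B young to B old, and their difference was -1.14 ± 0.18 SE (adjusted p = 0.000228, edgeR). For Hist1h2bc the difference was 0.05 ± 0.16 SE (adjusted p = 0.839, edgeR).

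**Figure D4:**
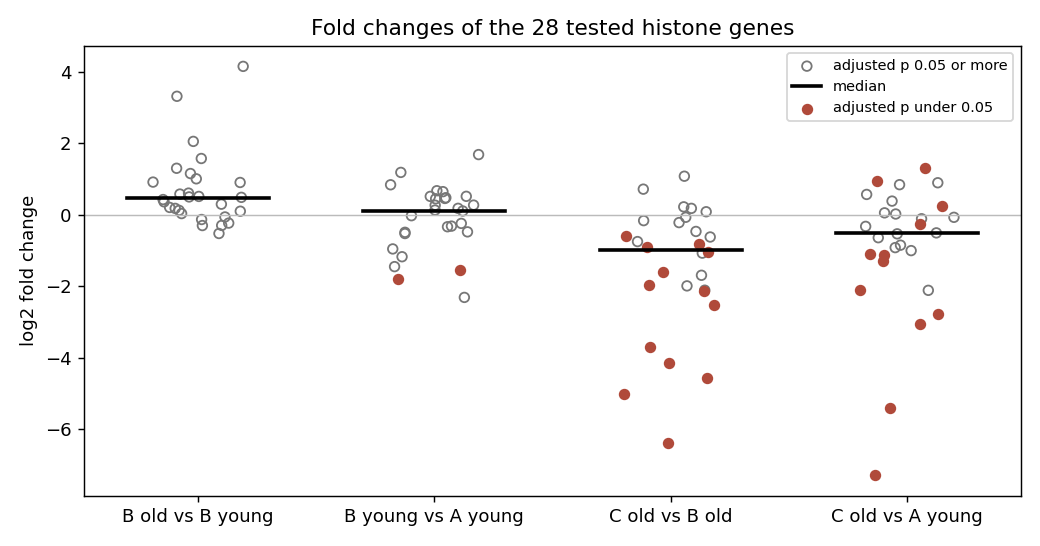
Log2 fold change of the 28 tested histone genes in each of the 4 contrasts, with filled points for an adjusted p under 0.05, open points for the others and a bar for the median. No point is filled for B old vs B young, and 13 filled points lie below 0 for C old vs B old.

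Levels were compared between genes per length. Per kilobase of its longest transcript, Hist1h1c was at 45.4 to 79.3 CPM, Hist1h2bc at 29.2 to 48.4 CPM and Hist1h2bg at 13.4 to 33.7 CPM over the 11 libraries. Hist1h1c was the highest of these in every library. Hist1h2ao moved with the group, at 16.5 to 40.1 CPM per kilobase in A young, 7.93 to 9.93 in B young, 12.1 to 21.2 in B old and 0.136 to 0.245 in C old. In A young it overlapped both Hist1h2bc (29.2 to 35.8 CPM per kilobase) and Hist1h2bg (26.8 to 33.7), so that no order is given among these. The genes ranked 11 and below by mean CPM, 28 in number, had means between 0.0605 and 0.983 CPM, and 19 of them stayed under 1 CPM in every library.

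Genes with and without an AATAAA match anywhere after the stop codon were set side by side after their values had been seen, so that this is a description only. A match need not be a signal in use. The genes without it include the 4 whose annotation stops at the stop codon. Of the 12 tested genes with AATAAA, 4 were lower in C old than in B old and the median log2 fold change was -0.19. Of the 16 without it, 9 were lower and the median was -1.84. Against A young, 2 of the 12 were higher and 1 was lower in C old, with a median of -0.01, and 1 of the 16 was higher and 8 were lower, with a median of -1.11. The split by AATAAA match and that by length largely coincide, so that their parts cannot be told apart. Of the 16 tested genes without AATAAA, 13 had a longest transcript under 1000 bases and 3 (Hist1h3d, Hist1h4d and Hist2h3c2) a longer one. Of the 12 with it, 2 (Hist1h2bp and Hist1h4a) were under 1000 bases. In C old against B old the median was -1.98 for the 13 short and -0.89 for the 3 longer genes without AATAAA. It was -3.34 for the 2 short and -0.12 for the 10 longer genes with it. The 15 tested histone genes with a longest transcript under 1000 bases had a median of -1.99 in C old against B old and the 13 longer ones -0.22. Other short genes went the same way, as among 1582 tested genes under 1000 bases that are not in the histone set 46.5% were lower and 11.4% higher in C old than in B old, with a median of -0.70, compared with 26.3% lower and 28.6% higher among 14496 longer genes. The part of transcript length in the histone values was not tested.

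Genes that work with histone mRNAs, or in the same phase of the cell cycle, were counted beside the clustered histone genes. Over all genes, 0.694% were higher and 1.54% lower in B old than in B young, 12.8% and 13.1% in B young against A young, 26.9% and 28.3% in C old against B old, and 27.1% and 31.4% in C old against A young. Of 39 DNA replication genes tested, 2 were higher in B old than in B young (Gins2, a subunit of the replicative helicase, and Rrm1, a subunit of ribonucleotide reductase) and 0 were lower by edgeR, with 15 higher and 0 lower at an unadjusted p under 0.05, 3 and 0 by DESeq2 and 2 and 0 by limma-trend. In B young against A young 0 were higher (1 at an unadjusted p under 0.05, 0 by DESeq2 and limma-trend) and 20 lower, with a median log2 fold change of -0.65, where the histone genes had a median of 0.12. In C old against B old 20 were higher and 2 (Dut and Gins4) lower, with a median of 0.55, where the histone genes had a median of -0.97. In C old against A young 17 were higher and 1 lower. Clspn, needed for the replication checkpoint, was at 7.48 and 4.68 CPM in B old and at 19.6, 18.5 and 20.1 CPM in C old (log2 fold change 1.67 ± 0.27 SE, adjusted p = 7.78e-05, edgeR). Mcm4, a subunit of the replicative helicase, was at 31.1 and 23.8 CPM in B old and at 56.5, 53.6 and 59.1 CPM in C old (log2 fold change 1.04 ± 0.14 SE, adjusted p = 1.46e-05, edgeR). Both were above B old in every C old library.

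Of 33 tested factors for transcription and 3′ end processing of histone mRNA, 0 were called by edgeR, DESeq2 or limma-trend between B old and B young (2 at an unadjusted p under 0.05), 8 were higher and 7 lower in C old than in B old, 12 were higher and 8 lower in C old than in A young, and 5 were higher and 4 lower in B young than in A young. These are 24.2% higher and 21.2% lower in C old against B old, near the 26.9% and 28.3% of all genes, with a median log2 fold change of -0.0060, and 15.2% and 12.1% in B young against A young, near the 12.8% and 13.1% of all genes. In these contrasts the counts therefore do not set the list apart. In C old against A young 36.4% were higher and 24.2% lower, compared with 27.1% and 31.4% of all genes. Npat, the coactivator of histone genes, was at 20.2 and 18.4 CPM in B old and at 31.1, 32.0 and 36.4 CPM in C old (log2 fold change 0.78 ± 0.13 SE, adjusted p = 9.72e-05, edgeR). Slbp, which encodes the stem-loop binding protein, was at 26.7 and 22.6 CPM in B old and at 37.1, 35.3 and 38.0 CPM in C old (log2 fold change 0.58 ± 0.12 SE, adjusted p = 0.000686, edgeR). Lsm10, a protein of the U7 particle, was at 14.8 and 14.9 CPM in B old and at 6.65, 5.83 and 6.09 CPM in C old (log2 fold change -1.26 ± 0.14 SE, adjusted p = 3.55e-06, edgeR). The groups did not overlap for Npat, Slbp or Lsm10, which were picked from the list with their values known. Lsm11, also a protein of the U7 particle, was not called in C old against B old (log2 fold change -0.35 ± 0.18 SE, adjusted p = 0.105, edgeR). Hinfp, Zfp473 and Coil were not called in that contrast either.

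Histone variants that are made outside S phase mostly carry ordinary poly(A) tails, and the tails of the genes listed here were not checked. Of 12 tested, 0 were called by edgeR between B old and B young (3 at an unadjusted p under 0.05, 1 by DESeq2 and 0 by limma-trend), 0 were higher (1 unadjusted, 0 by DESeq2 and limma-trend) and 2 lower in B young than in A young, 3 were higher and 6 lower in C old than in B old, and 1 was higher and 6 lower in C old than in A young. The counts in C old against B old compare with 26.9% (higher) and 28.3% (lower) of all genes, and the median log2 fold change of the 12 variants was -0.34. The pair of genes for the same H3.3 protein moved apart, with H3f3a at 93.2 and 101.1 CPM in B old and at 46.7, 45.9 and 40.3 CPM in C old (log2 fold change -1.13 ± 0.16 SE, adjusted p = 1.96e-05, edgeR). H3f3b was at 342 and 345 CPM in B old and at 457.6, 454 and 466 CPM in C old (log2 fold change 0.42 ± 0.11 SE, adjusted p = 0.00339, edgeR). H2afz, for the variant H2A.Z, was lower in C old by 0.99 ± 0.20 SE on the log2 scale (adjusted p = 0.000666, edgeR). Of 25 histone chaperones tested, 0 were called by edgeR, DESeq2 or limma-trend between B old and B young (3 at an unadjusted p under 0.05), 1 was higher and 7 lower in B young than in A young, 11 were higher and 4 lower in C old than in B old, and 7 were higher and 5 lower in C old than in A young. The counts in C old against B old compare with 26.9% (higher) and 28.3% (lower) of all genes, and the median log2 fold change of the 25 chaperones was 0.24.

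**Figure D5:**
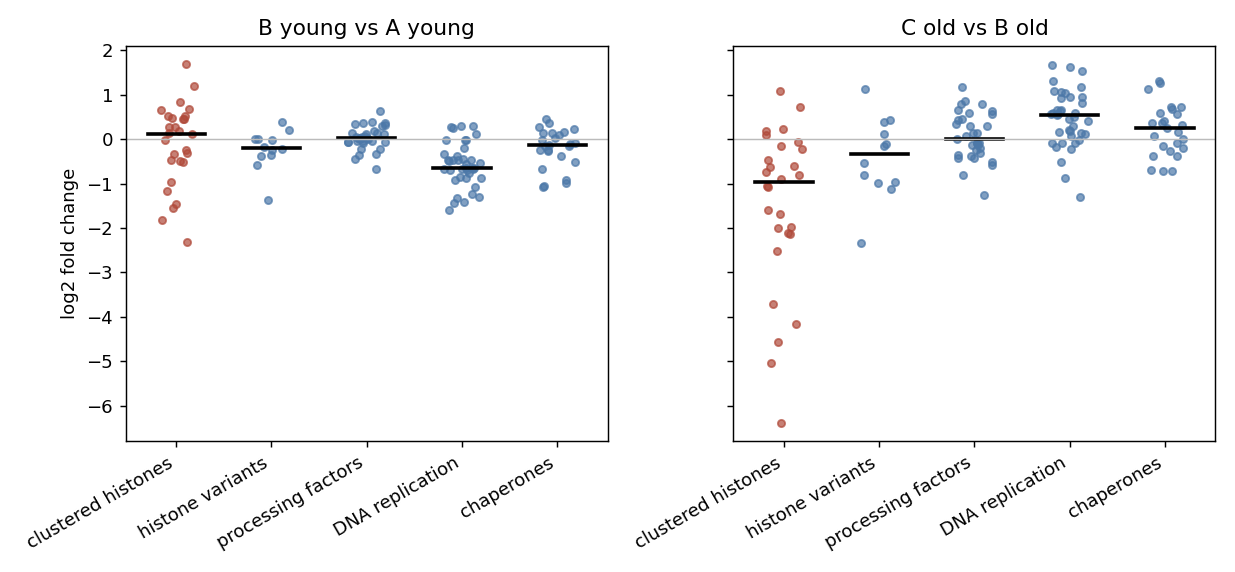
Log2 fold changes of the tested clustered histone genes and of the 4 related gene lists, for B young vs A young (left) and C old vs B old (right), with a bar for each median. In C old vs B old the median of the clustered histone genes is at -0.97 and that of the DNA replication genes at 0.55.

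RNAs that lack a poly(A) tail for other reasons were scarce in these libraries. Of 28 such RNAs, 7 were found and 2 were tested. Rn7s1, the RNA of the signal recognition particle, was at 2.38 to 4.73 CPM in A young, 3.80 and 4.36 CPM in B young, 4.78 and 4.27 CPM in B old and 0.942, 1.05 and 0.508 CPM in C old. The C old libraries were below all others (log2 fold change against B old -2.41 ± 0.33 SE, adjusted p = 1.79e-05, edgeR). Rn7sk, a regulator of transcription elongation, was at 0.111, 1.10, 0.165 and 0.406 CPM in A young (mean 0.445 ± 0.454 SD, n = 4). It was at most 0.545 CPM in batch B and at 0.0589, 0.131 and 0.00 CPM in C old. Rn7sk was lower in C old than in A young (log2 fold change -2.54 ± 0.95 SE, adjusted p = 0.0307, edgeR). These groups overlapped, and A young replicates 1 and 3 lay below the level of 3 counts. Against B old it was not called (log2 fold change -2.48 ± 1.06 SE, adjusted p = 0.0589, edgeR).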

How the data were processed

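Raw counts per Ensembl gene and library, in whole numbers and without normalisation, were deposited by the authors as a single table of 11 libraries. The submitters' processing notes name the assembly GRCm38 (mm10). The aligner, the counter, the strand setting and the handling of reads that match several genes are not given in the sources used here, so that near-identical and overlapping histone genes are uncertain. Genes and transcripts were taken from GENCODE M21. The quasi-likelihood test of edgeR (version 4.0.16, R 4.3.3) was run in a model with a mean for each of the 4 groups over all 11 libraries. Low genes were removed with filterByExpr (minimum count 5), TMM factors scaled the libraries, and the Benjamini-Hochberg method gave adjusted p-values (threshold 0.05). Tests were two-sided. No test was run on sums over genes.

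Histone genes were named by a rule. It took the 10 histone genes with the highest mean CPM and those called for age within batch B. For the other contrasts it took the 4 called higher and the 4 called lower with the smallest p-values. Genes of the other lists were named outside this rule, with their values known. The histone genes and lists were chosen with earlier results of these data known. Alternatives were RLE factors, unscaled totals, a minimum count of 10, no filter, DESeq2 1.42.0, limma-trend (limma 3.58.1, prior count 2), only the groups compared, a replicate block, no batch term for age, leaving out each library, and genes without an overlapping gene. The fitting code was tested on simulated data with 200 genes changed 2-fold between B old and B young. Of these genes edgeR recovered 56.5%, so that changes of this size can be missed in that contrast. False calls were 5.83% of the calls by edgeR, 10.3% by DESeq2 and 3.45% by limma-trend. No library pair differed by as little as sampling noise, with a chi-square per gene of at least 3.07. Totals were 11969336 to 20315934 counts.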

Additional observations from a re-analysis of the deposited data

Results flagged for a closer look

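For 6 of the named genes the old-young difference from batch A to batch C was not the same as that within batch B, by the test of the difference of the log2 fold changes in the edgeR model. The difference of the differences was -0.42 for Hist1h1c (adjusted p = 0.0304), -1.14 for Hist1h2bg (adjusted p = 0.000228) and -0.78 for Hist2h3c2 (adjusted p = 0.0205). It was -8.21 for Hist1h2ao (adjusted p = 5.70e-07) and -6.57 for Hist1h2ap (adjusted p = 1.11e-05), which share most of their sequence and had 4 and 3 counts in C old, so that these values depend on the prior count and are no bounds. It was -3.03 for Hist1h4h (adjusted p = 0.00627). All are on the log2 scale, and age and batch cannot be told apart in the first of the differences. Of 18 values checked over the 4 A young libraries, 0 had a library set apart from the others by Dixon's criterion.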

How the results depend on the processing

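The counts of histone genes called in C old vs B old (9 to 16, main count 13) and in C old vs A young (8 to 12, main count 12) stayed within 1.5 times of the main count under all alternatives run, leaving out a library included. For B old vs B young the main count of 0 became 4, all higher, with no filter on low counts and 2, both lower, with no batch term, and ranged from 0 to 3 with a library left out. For B young vs A young the main count of 2 became 5 on unscaled totals and 0 among genes with no overlapping gene, and ranged from 1 to 4 with a library left out. Leaving out a library of B young or B old leaves a single one, assumed to vary like the other groups. The summed CPM on unscaled totals was 172 in A young and 168 in C old, and over genes with no overlapping gene 164 in A young, 181 in B young, 206 in B old and 141 in C old. With a library left out it was 186 to 195 in A young, 188 to 200.4 in B young, 220 to 232 in B old and 143 to 148 in C old.

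Of the values of named genes under the alternatives, 511 kept their direction and call, 22 lost and 2 gained a call, and 7 reversed. With no batch term, the log2 fold change of old against young was -0.021 for Hist1h1c, -0.61 for Hist1h2bg, -1.81 for Hist1h2ao and -1.28 for Hist1h2ap, since that fit sets all old libraries against all young ones. On unscaled totals, Hist1h1c in C old vs A young was 0.11. For Hist2h2aa1 in B old vs B young, uncalled in every fit, leaving out a library gave -0.58 to 0.58. No pairing of libraries by replicate number was seen. The deviations of same-numbered libraries correlated between -0.11 and 0.14, over 0.1 in 2 of 13 pairs. In a group of 2 libraries the deviations mirror each other, so that these values cannot exclude pairing. With the replicate block, 0 (B old vs B young), 2 (B young vs A young), 16 (C old vs B old) and 9 (C old vs A young) histone genes were called. The cause of these changes was not tested. Depth limits the 28 genes under a mean of 1 CPM, for which a few counts decide a value.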
